A study of Mus musculus with 6 samples.

Results

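The immunoglobulin lambda light chain locus lies on mouse chromosome 16 and was followed here through the array features that map to it. Members were all non-control features placed strictly between the probes of Hira and Olfr166 (build mm9, from chr16:18956295 to chr16:19486994, 531 kb) and whose signal the scanner software marked as well above background on 3 arrays or more of the 6. The rule found 9 features of 13 in the interval, out of 27975 that passed the same detection filter and 41174 non-control probes on the array. The members were chosen by detection flags and position, and the locus was proposed with results of this comparison in view. The values of the members below are therefore a description of these animals, and the p-values beside them are not independent evidence.

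The arrays measured total RNA of epididymal white adipose tissue, the fat pad beside the epididymis, from male C57BL/6 mice of 9 to 10 weeks. The 3 wild type mice and the 3 patDp/+ mice, which carry a duplication inherited from the father as a model of 15q11-13 duplication syndrome, gave 1 single-colour (Cy3) array each, labelled from 200 ng of RNA. The labels give no transgene, treatment or pooling, and the duplicated segment does not lie on chromosome 16. The source line of every sample reads as a wild type animal, so groups were taken from the titles and genotype entries. The sources used here do not say whether the mice of a group were littermates, and p-values measure the spread between these 6 animals. On each of 3 slides, 1 wild type and 1 patDp/+ array of the same number lay together.

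Antibodies are made of heavy chains paired with light chains, and a light chain is either kappa or lambda. A B cell makes a lambda chain after it joins a variable (V) segment to a joining (J) segment, which is then spliced to the constant (C) region beside it. In the mouse the lambda locus is small and kappa chains are used in most antibodies. The V1 segment is mainly joined to the lambda 1 and lambda 3 units and V2 to lambda 2. Plasma cells, the antibody-secreting descendants of B cells, hold far more light chain mRNA per cell than resting B cells. White adipose tissue holds B cells and plasma cells in its stroma and in small lymphoid clusters.

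Because the results turn on which lambda unit a probe reads, the 60-base probes that mark the constant regions are shown first, each 5′ to 3′ as on the array. Capitals mark a run of 17 bases that the lambda 1 and lambda 3 probes share, and the lambda 2 probe shares no run of 8 bases or more with another member. Probes were compared only with each other. Whether a probe, such as that of lambda 3, also binds RNA of another lambda unit was not tested. Units are named below by the array's descriptions, and the lambda 3 and lambda 2 features may not be separate readings.
Lambda 1 constant, 3′ end (A_51_P503756): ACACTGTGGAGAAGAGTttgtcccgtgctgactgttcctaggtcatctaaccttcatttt
Lambda 3 constant (A_51_P483576): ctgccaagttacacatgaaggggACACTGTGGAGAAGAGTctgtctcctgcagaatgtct
Lambda 2 and 4 J and C (A_51_P235015): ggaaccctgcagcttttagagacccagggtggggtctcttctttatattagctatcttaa

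The next pair is shown because each probe spans a V to J junction and so matches only joined RNA over its whole length. Their deposited coordinates are split over 21.8 kb, from the J segment beside lambda 1 to V1. Capitals mark the 35 bases that lie in runs of 8 or more bases shared by both, the longest of them 19 bases. These probes are therefore not separate readings of joined RNA.
V-J joined (A_51_P503757): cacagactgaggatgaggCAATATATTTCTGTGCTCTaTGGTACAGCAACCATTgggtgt
V-J joined (A_52_P383114): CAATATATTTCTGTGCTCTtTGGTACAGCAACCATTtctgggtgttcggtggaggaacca

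The V1 pair below is shown because its probes overlap each other by 24 bases, in capitals, so they are not separate readings of the V segment.
V1 (A_52_P829408): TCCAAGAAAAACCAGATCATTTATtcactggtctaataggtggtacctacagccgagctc
V1 (A_52_P672903): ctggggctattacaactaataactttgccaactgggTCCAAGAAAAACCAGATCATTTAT

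Of the 36 pairs of members, these 3 shared 15 bases or more, and the longest run in any other pair was 7 bases. No other probe of the array shared 20 bases with a member. All 9 features map to the minus strand, and the outermost lie 199 kb apart. In ascending coordinates they run from the lambda 1 constant region (chr16:19061826-19061885 and chr16:19062058-19062117) over the joined features (chr16:19063333-19085147 and chr16:19063348-19085165) and lambda 3 (chr16:19065462-19065521) to V1 (chr16:19085232-19085291 and chr16:19085268-19085327), lambda 2 (chr16:19198545-19198604) and V2 (chr16:19260731-19260790). RefSeq's mouse gene table (GRCm38.p6, used for names and order only) lists the segments in the same order, with Iglc1, Iglc3, Iglv1, Iglc4, Iglc2 and Iglv2 following each other. Exon and intron annotation of build mm9 was not used here, and names come from the array's own descriptions. The 3 V features are each listed for both the V1 and the V2 transcript, so they cannot be assigned to 1 V segment. The feature at the 3′ end of lambda 1 carries a predicted-locus name (LOC100505358), but it shares a cDNA record with the joined feature A_51_P503757 and ends 172 bases before the next lambda chain probe.

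All 9 lambda features were lower in the patDp/+ fat pads than in wild type, by 2.18-fold to 4.69-fold. For each of the 9, the highest patDp/+ value lay below the lowest wild type value. Of all features with a value on every array, 5.67% had such groups, without overlap and lower in patDp/+, and 4.74% were without overlap and higher. The 9 covered variable, joined and constant parts of the locus, which are joined in a single lambda chain mRNA. They were read in the same 6 animals, so the 9 are not separate confirmations and the shares are given for scale only. The median difference was -1.52 on the log2 scale, against -0.0089 over all 27975 features. A difference of -1 or below was seen for 9 of 9 members and for 0.243% of all features, and any difference below 0 for 52.8% of all features. In limma's moderated test, 8 of the 9 had an unadjusted p under 0.05, against 2.75% of all features in that direction and 2.41% in the other. None passed after Benjamini-Hochberg adjustment over all features (adjusted p from 0.690 to 0.963), as was the case for every feature of the array, where the smallest adjusted p was 0.439 and 1442 features had an unadjusted p under 0.05.

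**Figure D1:**
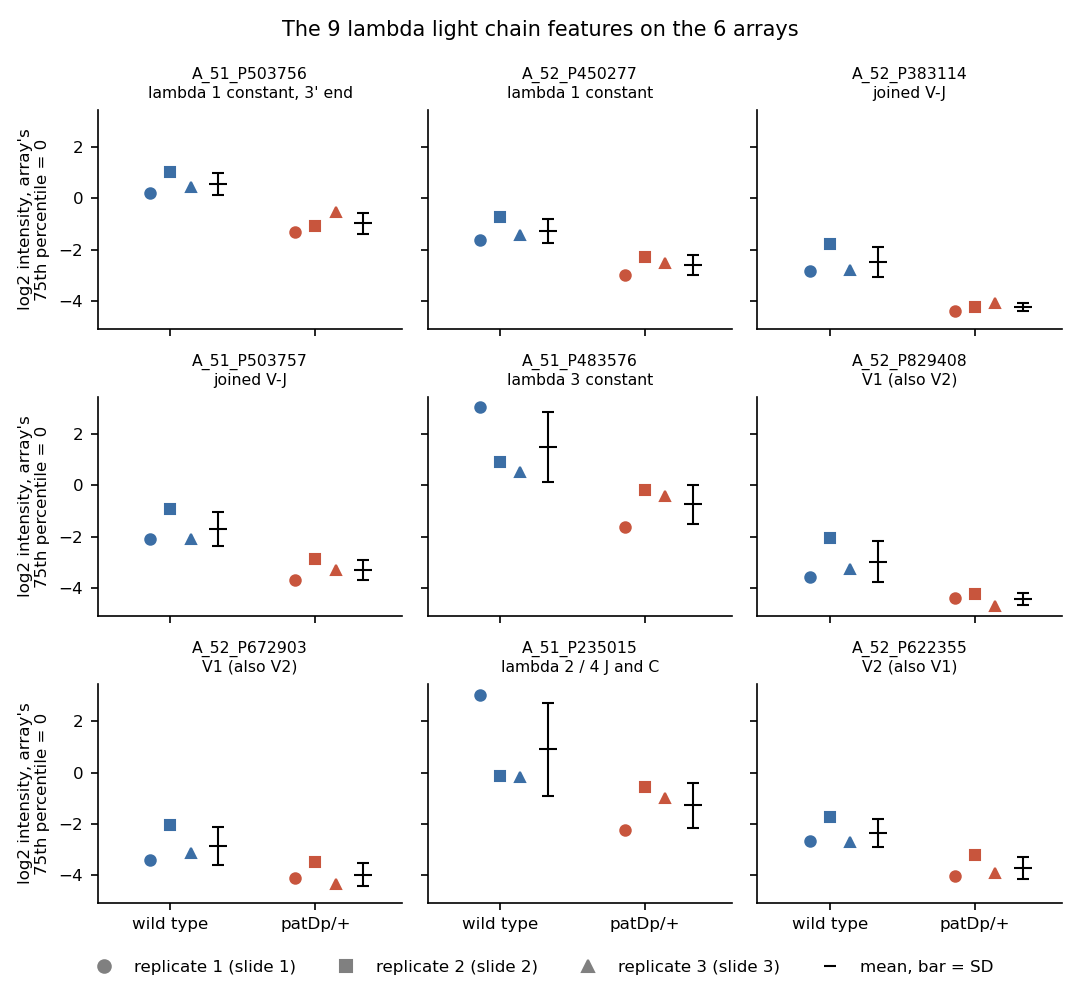
Level of each of the 9 lambda features on every array, as log2 intensity with the array's 75th percentile at 0; circles, squares and triangles are replicates 1, 2 and 3, and the black bar is the group mean with its SD (n = 3). In each panel the 3 patDp/+ points lie below the 3 wild type points, and the lambda 3 and lambda 2 panels show wild type replicate 1 far above the rest.

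The constant region of lambda 1, the part shared by all lambda 1 chains whatever their V segment, was read by 2 features. At its 3′ end (A_51_P503756) the log2 level relative to the array's 75th percentile was 0.20, 1.02 and 0.43 in wild type replicates 1 to 3 and -1.33, -1.06 and -0.53 in patDp/+ replicates 1 to 3. The corresponding background-corrected intensities were 1017, 1939 and 1354 against 401, 471 and 671. Wild type replicate 2 was the highest and patDp/+ replicate 1 the lowest, and the groups were separated by 0.72. The difference was -1.52 ± 0.28 (SE; unadjusted p = 0.00138, adjusted p = 0.822), a 2.88-fold lower level in patDp/+.

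The second lambda 1 feature (A_52_P450277), designed on a complete lambda chain mRNA, gave the same order of arrays at its ends. Its levels were -1.62, -0.73 and -1.44 in wild type and -3.01, -2.27 and -2.52 in patDp/+. It was 2.53-fold lower (-1.34 ± 0.29, unadjusted p = 0.00296, adjusted p = 0.867). Wild type replicate 2 was again the highest and patDp/+ replicate 1 the lowest, with no overlap between the groups.

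The joined features match rearranged V and J segments over their whole length, a product that exists only in cells of the B lineage. Whether they also bind unjoined V RNA, which matches a part of each probe, was not tested. The feature from a lambda variable region (A_52_P383114) had the clearest gap between groups, 1.26 on the log2 scale. It stood at -2.83, -1.80 and -2.80 in wild type and at -4.41, -4.24 and -4.09 in patDp/+. The 3 patDp/+ values lay close together (SD 0.16) while those of wild type spread more (SD 0.59), mainly through replicate 2. It was 3.41-fold lower in patDp/+ (-1.77 ± 0.29, unadjusted p = 0.000715), with the smallest adjusted p of the members, 0.690.

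The other joined feature (A_51_P503757), from a small intestine cDNA of a V1 lambda chain, read -2.11, -0.92 and -2.08 in wild type and -3.70, -2.89 and -3.32 in patDp/+. Its difference was -1.60 ± 0.37, a 3.04-fold lower level (unadjusted p = 0.00441, adjusted p = 0.951). As with the lambda 1 constant region, wild type replicate 2 stood above the other wild type arrays.

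The V segment features, which read the part of the chain that contacts antigen, were lower in patDp/+ by 2.18-fold to 2.74-fold. The names V1 and V2 serve as labels here, since each of these features is listed for both V transcripts. The feature labelled V2 (A_52_P622355) read -2.68, -1.73 and -2.70 in wild type and -4.03, -3.23 and -3.93 in patDp/+. Its difference was -1.36 ± 0.33 (unadjusted p = 0.00584, adjusted p = 0.951). The first V1 feature (A_52_P829408) read -3.59, -2.07 and -3.28 against -4.38, -4.22 and -4.70, a difference of -1.46 ± 0.39 (unadjusted p = 0.00910, adjusted p = 0.951). For both, wild type replicate 2 was the highest array and the groups did not overlap.

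The overlapping V1 feature (A_52_P672903) had the smallest difference of the 9 and nearly touched between groups. Its levels were -3.41, -2.03 and -3.16 in wild type and -4.11, -3.51 and -4.36 in patDp/+, so that only 0.10 separated wild type replicate 1 from patDp/+ replicate 2. The difference was -1.13 ± 0.40 (unadjusted p = 0.0287, adjusted p = 0.955). It was -0.71 without wild type replicate 2, and leaving out patDp/+ replicate 1 or patDp/+ replicate 3 raised its unadjusted p in limma to 0.0710 or 0.0863.

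The lambda 3 and lambda 2 constant features had the largest differences and the largest spread, and the rank of both differences rested on wild type replicate 1. Lambda 3 (A_51_P483576) stood at 3.06, 0.91 and 0.51 in wild type and at -1.61, -0.20 and -0.41 in patDp/+, which are intensities of 7380, 1796 and 1428 against 330, 859 and 730. The difference was -2.23 ± 0.73, 4.69-fold lower (unadjusted p = 0.0206, adjusted p = 0.951). Wild type replicate 1 was 5.09-fold above the mean of the other wild type arrays, and without it the difference was -1.45. Without patDp/+ replicate 1 the difference was -1.79 and its unadjusted p in limma 0.0623.

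Lambda 2 (A_51_P235015), a feature also described for the J and C regions of the lambda 4 pseudogene, showed the same array standing apart. It stood at 3.01, -0.12 and -0.19 in wild type and at -2.26, -0.56 and -1.01 in patDp/+, with intensities of 7139, 877 and 882 against 210, 668 and 481. The difference of -2.18 ± 0.94 (4.52-fold lower) was the only one of the 9 with an unadjusted p above 0.05 (0.0572, adjusted p = 0.963). Wild type replicate 1 exceeded the mean of the other wild type arrays 8.96-fold, and without it the difference was -1.12, the smallest of the 9, while that of the joined feature A_52_P383114, at -1.94, was the largest.

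The members followed 2 patterns among the wild type animals. For 7 features wild type replicate 2 was the highest array, with a mean of 1.42 above each feature's own mean over the 6 arrays, while wild type replicates 1 and 3 stood at 0.31 and 0.45. For the lambda 3 and lambda 2 constant features wild type replicate 1 was the highest, at 2.94 above their means. The lowest array was patDp/+ replicate 1 for 7 features and patDp/+ replicate 3 for 2, the overlapping V1 features.

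Set within each array against the 3′ end of lambda 1, lambda 3 and lambda 2 were out of proportion on wild type replicate 1 alone. The log2 ratio of lambda 3 to lambda 1 was 2.86 there and between -0.28 and 0.87 on the other 5 arrays. That of lambda 2 to lambda 1 was 2.81 there and between -1.15 and 0.50 on the others. Such a ratio compares different probes and is read here only across arrays. On the same wild type animal Jchain, which links secreted antibody units, read 1.27 against -0.74 to 0.18 on the other arrays, and Cxcl13, a chemokine that attracts B cells, read 0.31 against -2.96 to -1.58. Both were picked after their values were seen, from lists whose genes did not all peak there. Mzb1, Xbp1 and Tnfrsf17 were also highest on this array, whereas Ccl19, Ccl21a and Pou2af1 were highest on wild type replicate 3. Irf4 was highest on patDp/+ replicate 1. The part of these genes in the lambda 2 and lambda 3 values was not tested.

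**Figure D2:**
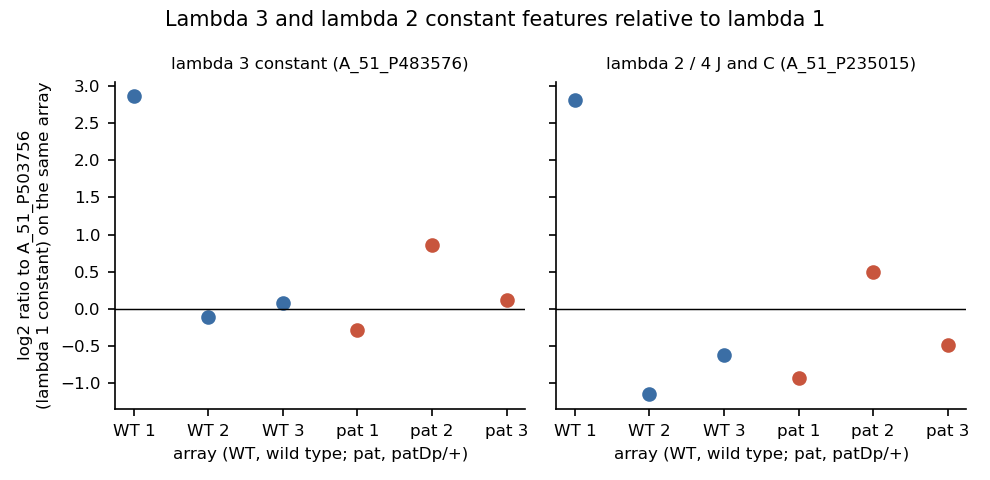
Log2 ratio of the lambda 3 constant feature (left) and the lambda 2 feature (right) to the lambda 1 constant feature on the same array, 1 point per array, wild type in blue and patDp/+ in red. Wild type replicate 1 lies at 2.86 and 2.81, and no other array exceeds 0.87 and 0.50.

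Within a slide every difference is negative by construction, since the groups did not overlap, so only the sizes are given. The median difference over the 9 was -1.53 on slide 1, -1.54 on slide 2 and -1.21 on slide 3. On slide 1 the differences ranged from -5.27 for lambda 2 to -0.70 for a V1 feature, on slide 2 from -2.44 to -0.44 and on slide 3 from -1.42 to -0.82. Slide 1 therefore held both the widest range and the largest single differences.

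The size of the difference depended on how the raw signal was processed for the dim features. Normexp background correction was run with an offset of 50 added before the log. With it the lambda 1 3′ end, lambda 3 and lambda 2 were at -1.37, -2.01 and -1.90, whereas the other 6 members were between -0.72 and -0.11. Such an offset by itself narrows log differences of dim features, and its part was not separated from that of the background correction. Under that correction 3 members had an unadjusted p under 0.05 and the median was -0.66, while the median of all features moved from -0.0089 to 0.12 and that of the 9540 kept probes with a mean log2 level below -2.5 moved to 0.54. All 9 stayed below 0. All members were well above background on 6 of 6 arrays and none was saturated, with intensities from 37.1 to 7380. The lowest intensity well above background ranged from 17.0 on patDp/+ replicate 2 to 27.2 on patDp/+ replicate 3. The member intensity of 37.1 was read on patDp/+ replicate 3.

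The 4 features of the interval that are not members were at background. LOC635992 (chr16:19028679-19028738) was well above background on 1 array, patDp/+ replicate 1. AK079984 and the odorant receptor genes Olfr164 and Olfr165 were not well above background on any array. Every member was detected on all 6 arrays, so any threshold from 2 to 6 arrays would give the same 9, while a threshold of 1 would add LOC635992, whose mean was higher in patDp/+ (-5.88 against -6.34). A further probe of the lambda chain mRNA (A_52_P450276), without a position in the files and so outside the rule, was well above background on 5 of 6 arrays. It read -3.71, -2.57 and -3.69 in wild type and -5.02, -4.20 and -5.30 in patDp/+, a difference of -1.52 ± 0.40 (unadjusted p = 0.00874, adjusted p = 0.951).

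Differences of this size were not seen in the probes on either side of the locus. The 3 Hira probes, which flank it and belong to a histone chaperone gene, differed by 0.07 ± 0.10, -0.03 ± 0.15 and 0.32 ± 0.33, and Olfr166 by 0.08 ± 0.19. Of the 20 nearest detected probes, 10 on each side, 1 had an unadjusted p under 0.05 in limma, a Klhl24 probe at -0.28 ± 0.09. The 20 ranged from -0.30 to 0.32 with a median of -0.02. In contrast, the genes of the duplicated segment were higher in patDp/+, with Snrpn at 2.28-fold and 2.32-fold, Ndn at 2.12-fold and Ube3a at 1.40-fold to 1.49-fold, and with no overlap between groups for any of their 6 probes.

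**Figure D3:**
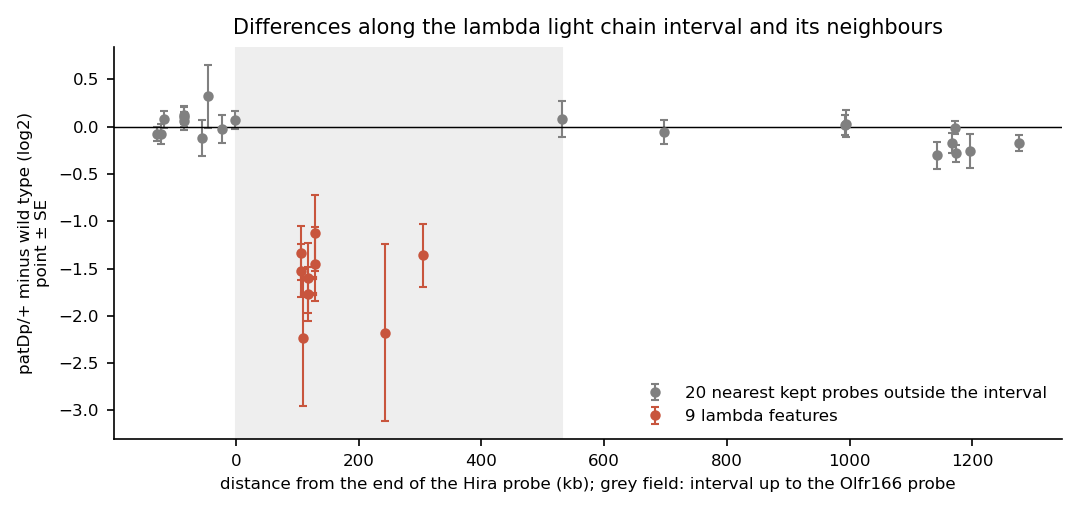
Difference between patDp/+ and wild type (log2, point ± SE) against the distance in kb from the end of the Hira probe, for the 9 lambda features (red) and the 20 nearest kept probes outside the interval (grey); the grey field is the interval up to the Olfr166 probe. The lambda features lie between -2.23 and -1.13, and the neighbours on both sides between -0.30 and 0.32.

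In the heavy chain interval on chromosome 12, between Tmem121 and Vipr2, 52 of 94 features were detected, 32 lower and 20 higher, with a median of -0.05 that turned to 0.04 or 0.01 when replicate 2 of either wild type or patDp/+ was left out. The interval also holds probes of Zfp386 and Adam6b, which are not immunoglobulin genes. Of the 52, 3 were lower and 2 higher at an unadjusted p under 0.05 in limma, against 2.75% and 2.41% of all features. Among the 3 with the smallest p, a variable region feature (A_52_P469009) was at -0.72 ± 0.18 and an IgG3 constant feature (A_51_P290619) at -0.59 ± 0.15. An IgG2b constant feature (A_52_P74106) was at 2.49 ± 0.63, 5.61-fold higher in patDp/+. Under normexp the heavy chain median turned positive, to 0.51, below the shift of 0.54 of all dim features.

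Markers of B cells were mostly lower in patDp/+ as well. Of 16 B cell genes 14 were detected, 12 of them lower in patDp/+, 5 at an unadjusted p under 0.05, with a median of -0.52. Over all features 52.8% were lower, and 2.75% were lower at that p in limma. Fcmr, the receptor for IgM, was at -1.04 ± 0.35, Cxcr5, which guides B cells to follicles, at -0.69 ± 0.25, Cd79b, a signalling part of the B cell receptor, at -0.74 ± 0.28 and Fcer2a at -0.44 ± 0.18. None of the 14 had groups without overlap, and patDp/+ replicate 3 read at or above the lowest wild type array for 11 of them. The list's mean, centred on each gene, was 0.24, 0.06 and 0.39 in wild type and -0.45, -0.32 and 0.08 in patDp/+.

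On patDp/+ replicate 3 the B cell mean lay just above that of wild type replicate 2, while the lambda mean, centred in the same way, stood at -0.76, below every wild type array. The order of the wild type arrays also differed, since replicate 2 had the lowest B cell mean and the highest lambda mean (1.17). The summed linear level of the 14 markers, with the array's 75th percentile at 1, ranged from 7.94 to 8.45 in wild type and from 7.15 to 7.92 in patDp/+. Blnk, one of the 2 that were higher in patDp/+, makes up most of that sum, and without it the ranges were 2.54 to 3.43 and 1.69 to 2.67. No B cell marker passed adjustment. The list's median was -0.76 without patDp/+ replicate 3 and -0.24 in the authors' deposited table. It was 0.23 under normexp, where the median of all features was 0.12 and that of all dim features 0.54. The list's part in the lambda result was not tested. In whole tissue, fewer cells of a type and less RNA per cell cannot be told apart.

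The plasma cell genes lay on both sides of 0. All 12 were detected, 7 higher and 5 lower, with a median of 0.0070 that changed sign under 5 settings, down to -0.08 without wild type replicate 3. The 3 with the smallest p were lower, Mzb1 at -1.01 ± 0.36 (unadjusted p = 0.0288), Pou2af1 at -0.90 ± 0.40 and Jchain at -0.80 ± 0.40, which was -0.37 without wild type replicate 1. The other 9, among them Irf4 and Sdc1 at 0.06 ± 0.15 and 0.04 ± 0.14, lay between -0.04 and 0.15. The summed level was 11.98 to 15.9 in wild type and 13.0 to 13.2 in patDp/+. Xbp1, at -0.03 ± 0.13, makes up most of that sum, so the sum says little about the other genes.

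T cell genes were higher where the lambda features were lower. Of 10 listed, 8 were detected and all 8 were higher in patDp/+, with a median of 0.49. At an unadjusted p under 0.05 in limma 4 of them were higher, against 2.41% of all features. Their summed level was 1.24 to 1.34 in wild type and 1.73 to 2.01 in patDp/+. Cd8a and Cd8b1, the co-receptor chains of cytotoxic T cells, were at 1.35 ± 0.13 and 1.18 ± 0.16, Cd3d at 0.45 ± 0.13 and Cd6 at 0.46 ± 0.14.

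**Figure D4:**
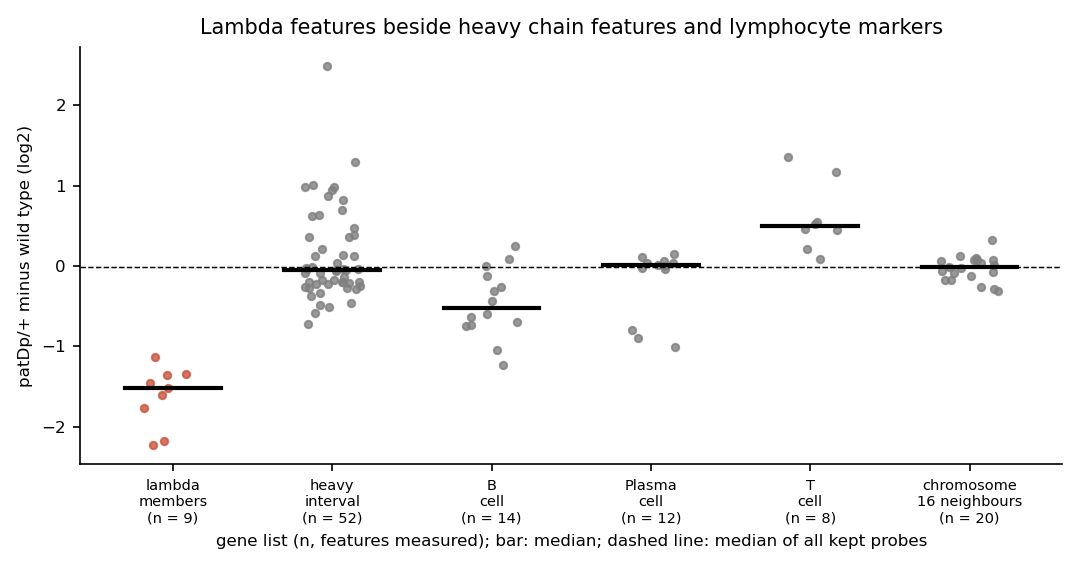
Difference between patDp/+ and wild type (log2) for each measured feature of 6 groups, with the median as a bar and the median of all kept probes as a dashed line; horizontal scatter within a group has no meaning. The 9 lambda features all lie below -1 with a median of -1.52. All kept features of the heavy chain interval are shown, and they spread to both sides of 0. B cell markers have a median of -0.52 and T cell markers lie above 0 with a median of 0.49.

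The 8 adipocyte genes, which include Adipoq and Fabp4, had a median of -0.08 and none had an unadjusted p under 0.05; the smallest p was that of Lep, at 0.45 ± 0.19. Of 5 red blood cell genes 3 were detected, with a median of 0.16, which was -0.18 without patDp/+ replicate 3. Their centred means ranged from -0.52 on wild type replicate 3 to 0.85 on patDp/+ replicate 3, and on slide 3 their median difference was 1.34. Their part in the lambda result was not tested. Of 6 genes of the epididymis and testis, 3 were detected, with a median of -0.14 and with Prm1 at -0.56 ± 0.42 through patDp/+ replicate 1, and the epididymal genes Crisp1, Lcn5 and Lcn8 were not detected on enough arrays. Arrays correlated at 0.987 to 0.994 over all features.

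Only probes named by a gene symbol were ranked by how like their profile across the 6 arrays was to the mean of the lambda members. The most alike were Pde2a (Pearson r = 0.99), Cnot10, Enah, Ptprd, Ift81, Fdft1, Rsrc1 and Stap2 (r = 0.975). These are descriptions over 6 points that share their arrays and the group difference, and 0.643% of 27850 other probes reached r of 0.9. The 8 genes varied far less than lambda, with an SD over arrays of 0.06 to 0.18 against 0.95. None of them is an immunoglobulin gene, but many immunoglobulin features carry only a record name and so could not be ranked.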

How the data were processed

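Total RNA of 6 fat pads was labelled with Cy3 and hybridised to 6 single-colour Agilent arrays. Per the file headers, the authors' scanner files were made with Feature Extraction 9.5.1.1 on build mm9 and hold a background-corrected processed intensity per spot. Versions 9.5 of that software and 3.18.2 of limma are listed per the submitters' processing notes. A deposited table of log2 values, quantile-normalized per its name, was an alternative; its column medians are 7.58.

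Outlier spots were left out, replicate spots averaged, and log2 intensity minus each array's 75th percentile (intensities of 886 to 1008) was fitted per probe with limma 3.58.1 in R 4.3.3 (lmFit, eBayes, two-sided), with Benjamini-Hochberg adjustment over 27975 probes well above background on at least 3 of 6 arrays. No block was used: same-numbered arrays had correlations of deviations of 0.12, -0.10 and -0.03. With 3 animals against 3, an exact permutation test cannot go below p = 0.1. The number of arrays limits the precision. The fit was tested on simulated data. The features named were all those of the interval, its flanks and the duplicated genes Snrpn, Ndn and Ube3a. By smallest p, up to 4 genes per list and 3 of the heavy chain interval were named, and by correlation 8 genes. Jchain, Cxcl13, Ccl21a, Xbp1, Tnfrsf17, Irf4, Sdc1, Adipoq, Fabp4, Blnk, Zfp386 and Adam6b were named partly after their values were seen. Leaving out Blnk, or wild type replicate 1 for single list genes, was added after seeing the data. Lists of surrogate light chain genes, lymphoid chemokines and immunoglobulin receptors are in the closing section. A further interval is not reported here. The members and lists were chosen with earlier results of these data known. Gene names were updated through RefSeq where the table held them (31793 of 41174 probes).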

Additional observations from a re-analysis of the deposited data

How the results depend on the processing

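All 168 member values under the 19 refitted settings lay below 0, and none had an adjusted p under 0.05 (smallest 0.348, with a variance trend and robust fit). With normexp the members lower at an unadjusted p under 0.05 numbered 3 and their median was -0.66; in the deposited table the median was -1.02; with 1 probe per gene, which leaves 6 members, the count was 5. Leaving out 1 array gave counts of 6 to 9 and medians of -1.61 to -1.21. With the replicate block, which is also the slide block, the count was 7, without lambda 3 (unadjusted p in limma 0.0523), and the median -1.52; the check in the processing notes did not show that the numbers pair the animals. At p under 0.01 the count was 6, and at adjusted p under 0.1 it was 0. List medians that changed sign did so under normexp or stayed near 0 (-0.08 at the farthest, plasma cell genes without wild type replicate 3), apart from red blood cell genes (-0.18 without patDp/+ replicate 3). Dim features, nearest to background, limit the sizes given for the V and joined probes. The size for the lambda 1 constant feature A_52_P450277 also depended on the setting. It was -1.34 in the main fit, -0.72 under normexp and -1.02 in the deposited table.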

Other observations

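Genes of the surrogate light chain, which stands in for a light chain in B cell precursors, were detected for 4 of 8 listed genes of that chain and of recombination. Vpreb3 was lower in patDp/+ by -0.77 ± 0.30 (unadjusted p = 0.0421) with a gap of 0.0086 between groups, and by -0.50 without wild type replicate 1. Dntt was at -0.19 ± 0.09 with a gap of 0.05, whereas Vpreb1 and Vpreb2 were at 0.10 ± 0.20 and 0.16 ± 0.19. Rag1 and Rag2 were not detected on enough arrays to be kept. The median of the 4 was -0.05.

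Receptors that bind antibody, found mostly on myeloid cells, differed little between the groups. Of 7 listed, 6 were detected, 5 of them higher in patDp/+, as were 13212 of all 27975 features. Their median was 0.14 and none had an unadjusted p under 0.05. Fcgr2b was at 0.39 ± 0.17, Fcgr3 at 0.25 ± 0.12 and Fcgr4 at -0.17 ± 0.17. Among lymphoid chemokines and stroma, 4 of 6 were detected, with a median of -0.30. Cxcl13 was at -1.27 ± 0.59 (unadjusted p = 0.0735) and -0.63 without wild type replicate 1, while Ccl19 was at -0.17 ± 0.21.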
